A study of Homo sapiens with 12 samples.

Results

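The casein kinase 1 family was followed as 8 genes, chosen by their symbols. They were the targeted kinase CSNK1A1, its copies CSNK1A1L and CSNK1A1P1, and the paralogs CSNK1D, CSNK1E, CSNK1G1, CSNK1G2 and CSNK1G3. All 8 were present among the 12756 genes that each deposited table lists, and in all 8 the mean log2 CPM, the read count scaled to library size, was at least 1. The RNA, selected for poly(A), came from HCT116, an established cell line of human colorectal carcinoma, with 3 replicates by label in each of 4 groups. These are an AGO2 knockout, an ANKRD52 knockout, an ANKRD52;CSNK1A1 double knockout and the unedited parental line. The double knockout therefore carries the loss of ANKRD52 as well, and no group analysed here lacks CSNK1A1 alone. The labels do not say whether each knockout is a clone or a pool, nor whether replicates were separate cultures, so a p-value here speaks of the scatter of these libraries alone, and that scatter may be technical. The title of the study names a phosphorylation cycle of Argonaute, in which CSNK1A1 is known as the kinase that acts on AGO2 and ANKRD52 as a subunit of the phosphatase that reverses it. The question here is what each knockout did to the RNA of the kinase family as a whole.

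Casein kinase 1 enzymes are serine/threonine kinases that are active without an upstream signal and often act on substrates that already carry a phosphate nearby. CSNK1A1 encodes the alpha isoform, which primes beta-catenin for destruction in the APC and Axin complex and phosphorylates Argonaute. CSNK1D and CSNK1E encode the delta and epsilon isoforms, known from the circadian clock for phosphorylating the PER proteins. CSNK1G1, CSNK1G2 and CSNK1G3 encode the gamma isoforms, which are held at membranes by a lipid anchor and phosphorylate the Wnt receptor LRP6. HCT116 cells are known to carry an activating mutation of beta-catenin.

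Because RNA reads are assigned to genes by sequence, the likeness between members bears on every value that follows. In GENCODE release 29 (GRCh38), CSNK1A1 occupies chr5:149492197-149551552 on the minus strand. CSNK1A1L is a single-exon gene at chr13:37103259-37105664, also on the minus strand, and its coding sequence matched that of CSNK1A1 at 91.5% of aligned bases. CSNK1A1P1, at chr15:36798596-36818459 on the minus strand, is annotated as a transcribed processed pseudogene and matched at 93.2%. Coding identity with CSNK1A1 was 65.6% for CSNK1D, 66% for CSNK1E, 62.1% for CSNK1G1, 59.1% for CSNK1G2 and 62.3% for CSNK1G3. The closest pair outside the alpha branch was CSNK1D and CSNK1E, at 79.6%.

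A coding stretch of 75 bases, the cycle number of the sequencing kit, shows where a read could least tell CSNK1A1 from its copies. It was chosen as the coding stretch of CSNK1A1 with the fewest mismatches to both copies together, so it is not typical. It starts at coding position 845 of CSNK1A1, and is printed 5′ to 3′ on the coding strand with capitals for bases that differ from CSNK1A1. In GRCh38 the stretch spans chr5:149505534-149507039 with an intron inside, chr13:37104338-37104412 and chr15:36817227-36817301 with none, and chr17:82249593-82251443 and chr22:38294525-38298850 with one intron each, all on the minus strand.
CSNK1A1: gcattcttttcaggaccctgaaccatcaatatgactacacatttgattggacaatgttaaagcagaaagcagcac
CSNK1A1L: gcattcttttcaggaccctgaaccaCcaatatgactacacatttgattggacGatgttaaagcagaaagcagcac
CSNK1A1P1: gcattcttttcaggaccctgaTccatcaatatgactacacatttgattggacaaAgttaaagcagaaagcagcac
CSNK1D: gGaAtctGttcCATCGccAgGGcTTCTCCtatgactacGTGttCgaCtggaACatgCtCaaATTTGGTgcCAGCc
CSNK1E: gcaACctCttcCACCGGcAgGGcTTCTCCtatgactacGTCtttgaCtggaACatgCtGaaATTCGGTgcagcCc

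Counted from 1 at the first printed base, CSNK1A1L differed from CSNK1A1 by T26C and A53G, and CSNK1A1P1 by A22T and T55A. CSNK1D differed at 37 of the 75 positions and CSNK1E at 34. The stretch thus separates delta and epsilon from alpha many times over, and the copies of alpha by 2 bases each. Over the aligned coding sequence, CSNK1A1L differed from CSNK1A1 at 83 of 978 bases and CSNK1A1P1 at 64 of 936.

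In the transcript used for each gene, 137 of the 2332 windows of 75 bases in CSNK1A1L (5.87%) lay within 2 mismatches of a CSNK1A1 transcript, and 634 (27.2%) within 5. For CSNK1A1P1 the annotation holds separate transcripts. In the single-exon transcript that is the pseudogene body, 72 of 907 windows (7.94%) lay within 2 mismatches and 336 (37%) within 5, larger shares than those of CSNK1A1L. In the longest CSNK1A1P1 transcript, which is spliced and holds the body only in part, these were 39 of 2073 windows (1.88%) and 95 (4.58%). No window of either copy was identical to CSNK1A1, the fewest mismatches being 1 for CSNK1A1L and 2 for CSNK1A1P1. In CSNK1D, CSNK1E, CSNK1G1, CSNK1G2 and CSNK1G3 no window came within 5 mismatches. Of the CSNK1A1 windows within 2 mismatches of CSNK1A1L, 69.6% crossed a junction between CSNK1A1 exons, as did 65.3% of those within 2 mismatches of CSNK1A1P1, against 11.1% of all CSNK1A1 windows. The 11.1% takes in the long 3′ UTR of CSNK1A1, of 4656 bases, and the share over coding windows alone was not computed. It therefore does not show whether the shared windows cross junctions more often than other coding windows. The windows shared with the copies were mostly ones that in CSNK1A1 span an intron and in the copies do not. The counting of reads with several matches is not given in the sources used here, so the values of CSNK1A1L and CSNK1A1P1 are uncertain throughout.

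**Figure D1:**
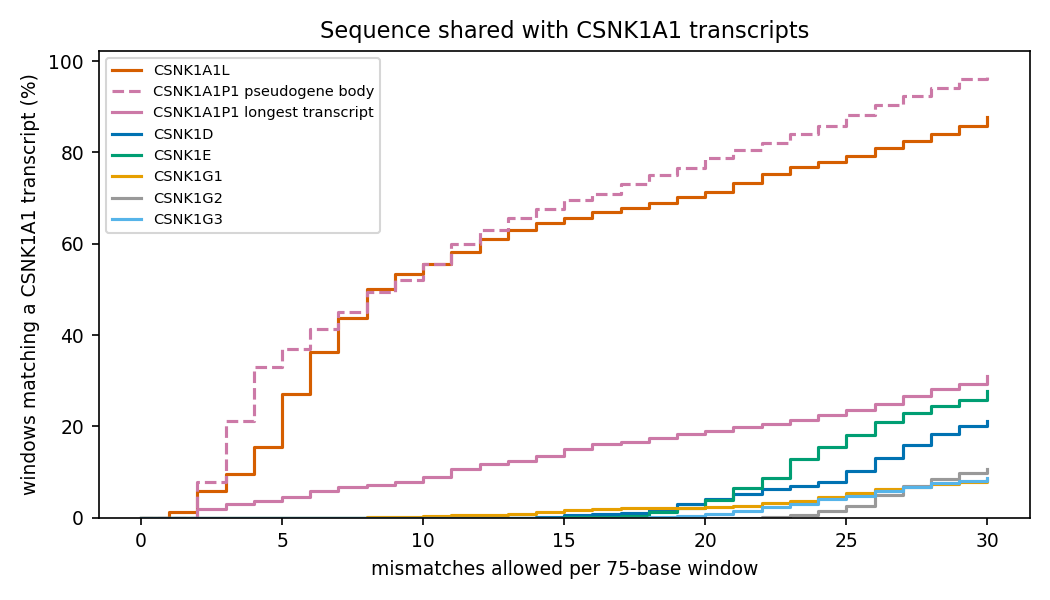
Share of 75-base windows (vertical axis, %) of each family transcript that match a CSNK1A1 transcript with at most the number of mismatches on the horizontal axis, with CSNK1A1P1 drawn for its pseudogene body (dashed) and its longest transcript. Within 5 mismatches the pseudogene body reaches 37%, CSNK1A1L 27.2% and the longest CSNK1A1P1 transcript 4.58%, while the 5 paralogs stay at 0.

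Before the members, the targeted genes were examined. AGO2 RNA was lower in the AGO2 knockout by the authors' deposited table (log2 fold change over parental -1.07, adjusted p = 0.0477), and ANKRD52 RNA in the ANKRD52 knockout had a value of 0.03 (adjusted p = 0.915). ANKRD52 RNA was higher in the AGO2 knockout by the authors' deposited table (0.85, adjusted p = 8.78e-07). Against an F distribution, described beside CSNK1G2, the adjusted p was 0.295 for AGO2 and 0.208 for ANKRD52 in the AGO2 knockout, and both calls were lost. Read that way, 0 of the 12756 genes were called in the AGO2 knockout. In the double knockout the authors' deposited table gave -0.65 for ANKRD52 (adjusted p = 2.32e-05) and -2.42 for CSNK1A1 (adjusted p = 1.71e-10). The deposited columns do not name a direction, which was read as knockout over parental, the order in which the deposited comparisons are named. The falls of AGO2 and CSNK1A1 have the sign which that reading gives a lost gene, so they are no separate result about direction. In the ANKRD52 knockout no targeted gene shows the direction, with 0.33 for AGO2 and 0.03 for CSNK1A1, neither called. An edit can remove a protein and leave its RNA, so the RNA of ANKRD52 in the single knockout is no test of its label.

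CSNK1A1 RNA fell in the double knockout and had fold changes near 0 in both single knockouts. Its implied group level, rebuilt from the mean log2 CPM and the 3 fold changes, was 216 CPM in the AGO2 knockout, 209 CPM in the ANKRD52 knockout and 38.2 CPM in the double knockout, against 204 CPM in parental cells. The double knockout stands alone at the low end, and the remaining groups lie close together. In the authors' deposited table the log2 fold change was -2.42 in the double knockout, with an approximate standard error of 0.35 and a 95% interval of -3.11 to -1.73, a 5.35-fold lower level. Only 31 of the 12756 genes had a lower log2 fold change in that comparison of the authors' deposited table. In the AGO2 knockout the authors' deposited table gave 0.08 (interval -0.58 to 0.74, adjusted p = 0.922), and in the ANKRD52 knockout 0.03 (-0.62 to 0.69, adjusted p = 0.969). Those intervals are wide, so changes of up to about their bounds were not detectable for CSNK1A1 in the single knockouts.

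Both copies of CSNK1A1 also fell in the double knockout. CSNK1A1L, an intronless gene whose product is close to the alpha isoform, had an implied level of 26 CPM in the AGO2 knockout, 23.1 CPM in the ANKRD52 knockout and 2.82 CPM in the double knockout, against 19 CPM in parental cells. By the authors' deposited table its log2 fold change in the double knockout was -2.75 (approximate standard error 0.27, adjusted p = 2.97e-23), a 6.75-fold lower level. In the single knockouts the authors' deposited tables gave CSNK1A1L 0.45 for AGO2 (adjusted p = 0.262) and 0.28 for ANKRD52 (adjusted p = 0.491). The double knockout was thus the lowest group, as for CSNK1A1, and the order of the other groups is not resolved for either gene. The log2 fold change of CSNK1A1L in the double knockout differed from that of CSNK1A1 by -0.33 (interval -1.20 to 0.53).

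The pseudogene CSNK1A1P1 fell further than the gene it was copied from. Its implied level was 5.73 CPM in the AGO2 knockout, 5.72 CPM in the ANKRD52 knockout and 0.13 CPM in the double knockout, against 5.45 CPM in parental cells. The level in the double knockout lies above the 0.0339 CPM that 3 reads over the group would give, and all other groups lie far above it. By the authors' deposited table the log2 fold change was -5.39 in the double knockout (approximate standard error 0.29, interval -5.96 to -4.82, adjusted p = 9.59e-73), a 42-fold lower level. Only 3 genes had a lower log2 fold change there, and CSNK1A1P1 ranked 13 of 12756 by adjusted p in the authors' deposited table. The fall exceeded that of CSNK1A1 by 2.97 on the log2 scale (interval of the difference -3.87 to -2.07, taking the errors as independent). In the single knockouts the authors' deposited tables gave CSNK1A1P1 0.07 in each (adjusted p = 0.844 for AGO2 and 0.839 for ANKRD52).

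The copies were also set against CSNK1A1 in the same cells. CSNK1A1L stood at 12% of the CSNK1A1 level in the AGO2 knockout, 11.1% with ANKRD52 lost and 7.38% in the double knockout, against 9.31% in parental cells, as ratios of implied CPM. For CSNK1A1P1 the ratios were 2.65%, 2.73% and 0.34% in the same order of knockouts, against 2.66% in parental cells. The ratio of the pseudogene was thus nearly the same in all groups but the double knockout, where it was lower.

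**Figure D2:**
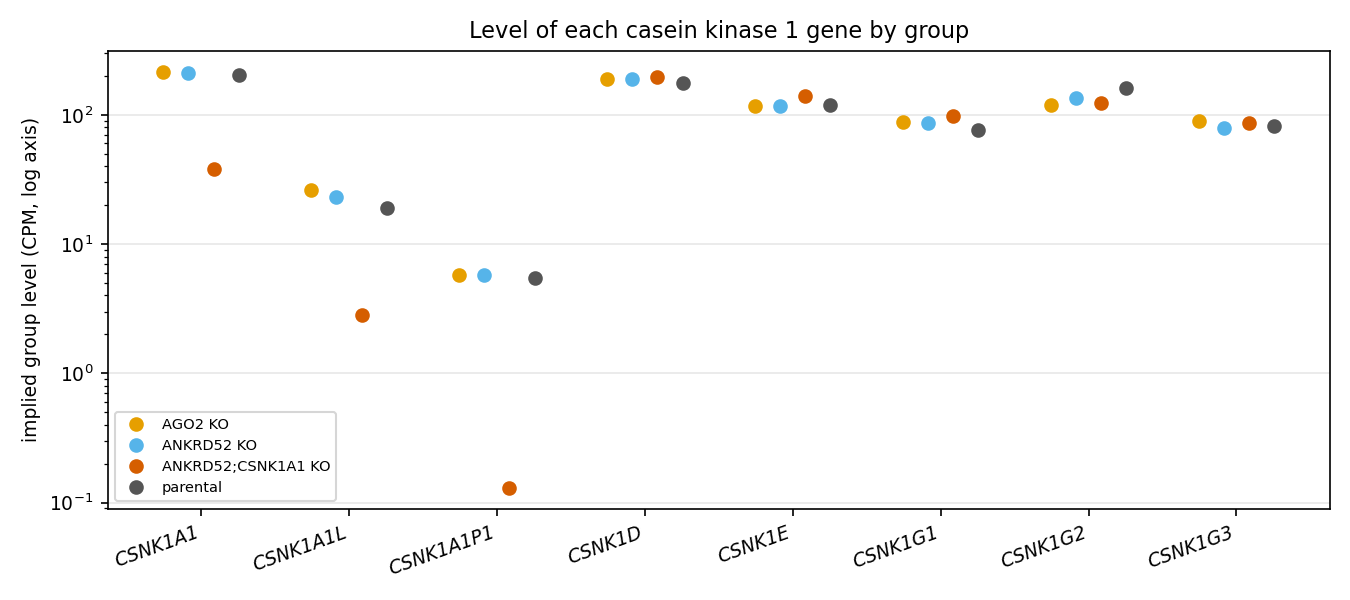
Implied level of each family gene (vertical axis, CPM, log scale) in the AGO2 knockout, ANKRD52 knockout, double knockout and parental groups, 1 point a group and without replicate spread. The double knockout lies far below the others for CSNK1A1, CSNK1A1L and CSNK1A1P1, and close to them for the 5 paralogs.

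Where the copies lie on other chromosomes, their neighbours give the regional level. Of the 3 tested genes on each side of CSNK1A1, the authors' deposited table called 4 of 6 changed in the double knockout, where 43% of all genes were called. The log2 fold changes were 1.08 for ARHGEF37 (adjusted p = 5.00e-05), -0.85 for PPARGC1B (5.43e-05), -0.49 for PCYOX1L (0.0166) and 0.40 for SLC26A2 (0.00353). Against the F distribution the call of PCYOX1L was lost (adjusted p = 0.0707). The other 2, AFAP1L1 and GRPEL2, had 0.17 and -0.08 in the authors' deposited table. Over the 6 neighbours the median was 0.05. For the 6 neighbours of CSNK1A1L, chosen like those of the other members after values were seen, the median was 0.42 with a range of -0.21 to 0.71. For the 6 neighbours of CSNK1A1P1 the median was 0.04 with a range of -0.41 to 2.51. No neighbour of the alpha gene or its copies fell as far as the member it flanks.

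The 5 paralogs at other loci stayed within narrow bounds. In the double knockout CSNK1G1 rose and CSNK1G2 fell, while CSNK1D, CSNK1E and CSNK1G3 did not pass the test. Counted over the family, the AGO2 knockout had 1 of 8 members called at the authors' adjusted p under 0.05 (CSNK1G2, lower), where 6.1% of all genes were called, 3.38% higher and 2.72% lower. The ANKRD52 knockout had 1 of 8 (CSNK1G2, lower), against 13.7% of all genes, 7.62% higher and 6.04% lower. The double knockout had 5 of 8, of which 4 were lower and 1 higher, against 43% of all genes, 22.9% higher and 20.1% lower. Of those 5, CSNK1A1 was the edited gene and CSNK1A1L and CSNK1A1P1 its near copies, and without the copies 3 of 6 were called, near the background share. The median log2 fold change of the 5 paralogs was 0.10 in the AGO2 knockout, -0.06 for ANKRD52 loss and 0.16 in the double knockout, beside medians of 0.00, 0.00 and 0.01 over all genes.

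**Figure D3:**
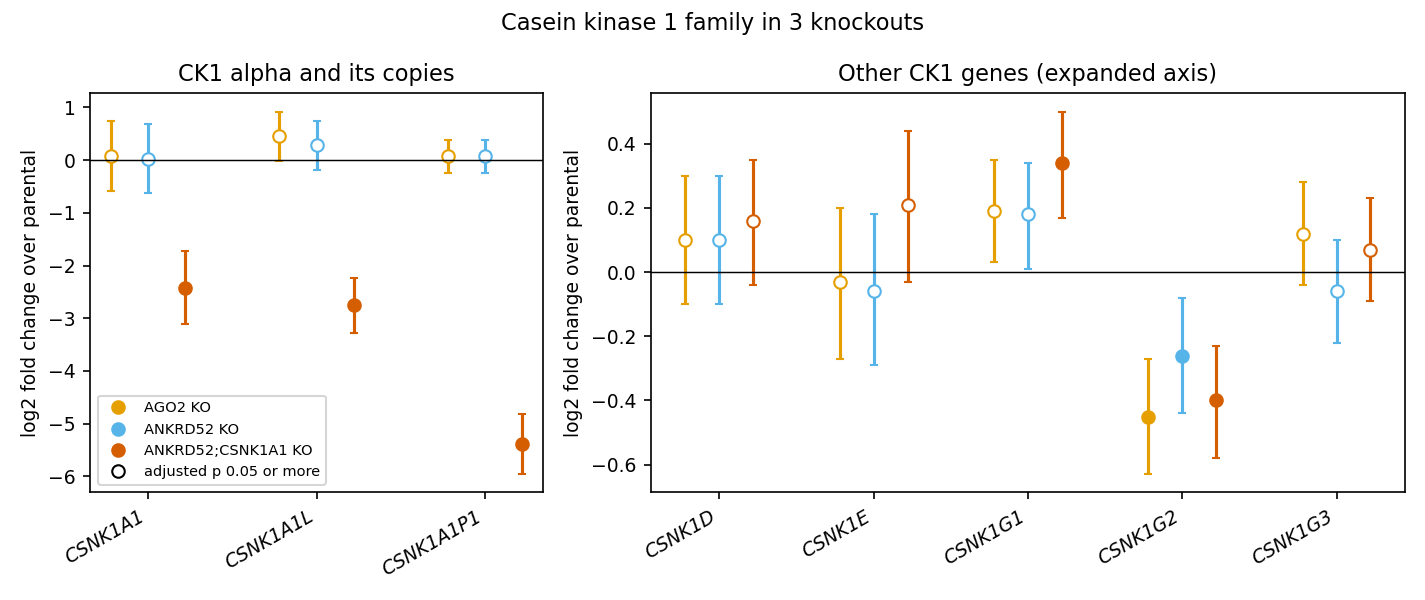
Log2 fold change over parental cells (vertical axis) of each family gene in the 3 knockouts, with 95% intervals from approximate standard errors, filled where the authors' adjusted p is under 0.05. The left panel shows CSNK1A1 and its copies, down to -5.39, and the right panel, on an expanded axis, the 5 paralogs, all between -0.45 and 0.34.

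CSNK1D and CSNK1E, the clock-associated isoforms, did not pass the test in any knockout. CSNK1D had an implied level of 188 CPM in the AGO2 knockout, 188 CPM in the ANKRD52 knockout and 196 CPM in the double knockout, against 176 CPM in parental cells. In the authors' deposited table its log2 fold change in the double knockout was 0.16 (interval -0.04 to 0.35, adjusted p = 0.201), and in the single knockouts it was 0.10 each (adjusted p = 0.619 for AGO2 and 0.572 for ANKRD52). CSNK1E had 117 CPM in the AGO2 knockout, 116 CPM in the ANKRD52 knockout and 139 CPM in the double knockout, against 120 CPM in parental cells. Its log2 fold changes in the authors' deposited tables were -0.03 (adjusted p = 0.911), -0.06 (0.822) and 0.21 (interval -0.03 to 0.44, adjusted p = 0.148). The point values of both genes were highest in the double knockout, with intervals that include 0.

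Of the membrane-anchored gamma isoforms, CSNK1G1 rose in the double knockout. It had 87.7 CPM in the AGO2 knockout, 86.8 CPM in the ANKRD52 knockout and 97.1 CPM in the double knockout, against 76.9 CPM in parental cells, so parental cells were the lowest group. The authors' deposited table gave 0.34 in the double knockout (approximate standard error 0.08, adjusted p = 0.000278), a 1.26-fold higher level. In that comparison 22.9% of all genes were called higher, and 76.8% of all genes had a lower log2 fold change than CSNK1G1. In the single knockouts the authors' deposited tables gave 0.19 for AGO2 (unadjusted p = 0.022, adjusted p = 0.15) and 0.18 for ANKRD52 (unadjusted p = 0.0345, adjusted p = 0.15). Both single knockouts lay on the same side, and all 3 comparisons share the parental libraries.

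CSNK1G2 was the single member that fell in all 3 comparisons. It had an implied level of 119 CPM in the AGO2 knockout, 136 CPM in the ANKRD52 knockout and 123 CPM in the double knockout, against 162 CPM in parental cells, which were the highest group. The authors' deposited table gave -0.45 in the AGO2 knockout (approximate standard error 0.09, adjusted p = 0.000185), a level 0.731 times that of parental cells. The ANKRD52 knockout had -0.26 (adjusted p = 0.0371) and the double knockout -0.40 (adjusted p = 6.06e-05) in the authors' deposited tables, or 0.836 and 0.755 times parental. All 3 comparisons use the same parental libraries, so they are not independent of each other. When the likelihood ratio was read against an F distribution (1 and 8 degrees of freedom), the adjusted p of CSNK1G2 was 0.259 in the AGO2 knockout and 0.181 in the ANKRD52 knockout, and the calls in these comparisons were lost. By that reading 0 of the 12756 genes were called in the AGO2 knockout and 3 in the ANKRD52 knockout. The lost calls are therefore not particular to CSNK1G2.

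The transcript of CSNK1G2 has the highest GC content of the family, at 65.2%, and GC-rich genes were lower in general. The 500 genes closest to it in GC content had median log2 fold changes of -0.17 in the AGO2 knockout, -0.13 for ANKRD52 loss and -0.21 in the double knockout. Of these genes 13.6%, 31.4% and 29.4% lay below CSNK1G2 in the same comparisons, and 9.4%, 14.6% and 35.2% were called lower. CSNK1G2 was thus lower than the middle of its GC class in each knockout and within its range. Its neighbour BTBD2, on chromosome 19 as well, was also lower in all 3, with -0.77, -0.46 and -0.82 in the authors' deposited tables (adjusted p = 0.000137, 0.0242 and 9.77e-07). Against the F distribution the calls of BTBD2 in the AGO2 and ANKRD52 knockouts were lost. BTBD2 was the lowest of the 6 tested neighbours of CSNK1G2 in each comparison. Over these 6 the medians were -0.08, -0.14 and -0.29 in the AGO2, ANKRD52 and double knockouts, and the highest values 0.33, 0.01 and 0.16. The part of GC content and of the locus in the fall of CSNK1G2 was not tested.

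CSNK1G3, the remaining gamma isoform, did not pass the test anywhere. It had 89.5 CPM in the AGO2 knockout, 79.1 CPM in the ANKRD52 knockout and 86.6 CPM in the double knockout, against 82.6 CPM in parental cells. The authors' deposited tables gave 0.12 (adjusted p = 0.423), -0.06 (0.681) and 0.07 (0.521), with an approximate standard error of 0.08 in each. The gamma isoforms, which share 69.2% to 75.3% of their coding bases, therefore lay on different sides of parental cells in the double knockout, CSNK1G1 above and CSNK1G2 below.

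The paralogs were next set beside CSNK1A1 itself. In the double knockout the log2 fold change of each exceeded that of CSNK1A1 by 2.02 for CSNK1G2 (interval 1.30 to 2.73) up to 2.76 for CSNK1G1 (2.05 to 3.47), with CSNK1D at 2.58 (1.86 to 3.30), CSNK1E at 2.63 (1.90 to 3.36) and CSNK1G3 at 2.49 (1.78 to 3.20). All 5 intervals lie above 0, taking the errors as independent. In the single knockouts every such interval included 0. Summed over the 5 paralogs, the implied level was 602 CPM in the AGO2 knockout, 606 CPM in the ANKRD52 knockout and 641 CPM in the double knockout, against 618 CPM in parental cells. The sum over CSNK1A1 and its copies was 248 CPM, 238 CPM and 41.1 CPM in those knockouts, against 229 CPM in parental cells. CSNK1A1 made up 25.4%, 24.8% and 5.6% of the family's summed CPM in the AGO2, ANKRD52 and double knockouts, against 24.2% in parental cells. The paralog sum in the double knockout was higher than in parental cells by less than the CSNK1A1 sum was lower, so the family total was 682 CPM there, against 847 CPM in parental cells.

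To set levels of different genes side by side, implied CPM was divided by the length of merged exons. This length was 11024 bases for CSNK1D, 6246 for CSNK1E and 3804 for CSNK1G2. The transcripts used for the windows above are shorter, with 3638, 2717 and 2844 windows for these genes. Levels by transcript length were not computed, and the order of the genes could differ there. By merged exons CSNK1G2 was highest per kilobase in every group. It had 31.2, 35.7 and 32.2 CPM per kilobase in the AGO2, ANKRD52 and double knockouts, against 42.7 in parental cells. CSNK1A1 came next in the single knockouts and in parental cells, at 28 and 27.1 CPM per kilobase in the AGO2 and ANKRD52 knockouts, against 26.5 in parental cells. In the double knockout CSNK1A1 had 4.95 CPM per kilobase and stood below CSNK1E (22.2), CSNK1D (17.8), CSNK1G3 (17.3) and CSNK1G1 (10). By this length the targeted kinase thus stood above only CSNK1A1L (1.17) and CSNK1A1P1 (0.0494) in the double knockout. In parental cells only CSNK1G2 stood above it. CSNK1D, CSNK1E and CSNK1G3 lie close together in each group by this length, and no spread over samples could be set to their order.

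By label the double knockout differs from the ANKRD52 knockout by the loss of CSNK1A1, although the labels do not say whether it was made from the same cells. ANKRD52 RNA had log2 fold changes over parental of 0.03 in the single and -0.65 in the double knockout. The groups may thus differ in more than CSNK1A1. In that comparison, built from the difference of the deposited log2 fold changes, 3 of 8 members were called, all lower, against 34.5% of all genes tested, 18.1% higher and 16.3% lower. CSNK1A1 differed by -2.45 (approximate standard error 0.34, approximate adjusted p = 3.11e-11), CSNK1A1L by -3.04 (0.25, 1.02e-30) and CSNK1A1P1 by -5.46 (0.24, 7.88e-114). Without the copies 1 of 6 was called, the edited gene itself. The values of the other members were 0.27 for CSNK1E (interval 0.03 to 0.50, unadjusted p = 0.0266, approximate adjusted p = 0.0708), 0.16 for CSNK1G1 (-0.00 to 0.32), 0.13 for CSNK1G3 (-0.03 to 0.29), 0.06 for CSNK1D (-0.14 to 0.25) and -0.15 for CSNK1G2 (-0.32 to 0.03). The calls of CSNK1G1 and CSNK1G2 against parental cells were therefore not matched by a called difference from the ANKRD52 knockout. For the 5 paralogs these intervals reach from -0.32 to 0.50 on the log2 scale, which bounds the difference between double and single knockout.

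The fold changes of the members were not equally precise. CSNK1A1 had a median approximate standard error of 0.335 over the 3 comparisons, larger than that of 97.8% of the 500 genes closest to it in mean expression, whose median was 0.101. CSNK1A1L was also wide, at 0.241 against 0.145 for its 500 genes. CSNK1A1P1, though the lowest in level, had a narrower median than most genes of its level, at 0.164 against 0.221. That median reflects the single knockouts, at 0.16 each, and its error in the double knockout was wider, at 0.29. CSNK1G1 and CSNK1G3, at 0.0832 and 0.0813, were among the narrowest, with 6.4% and 3% of like genes below them. Which libraries the wide error of CSNK1A1 comes from was not examined, because the tables hold no values per sample.

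**Figure D4:**
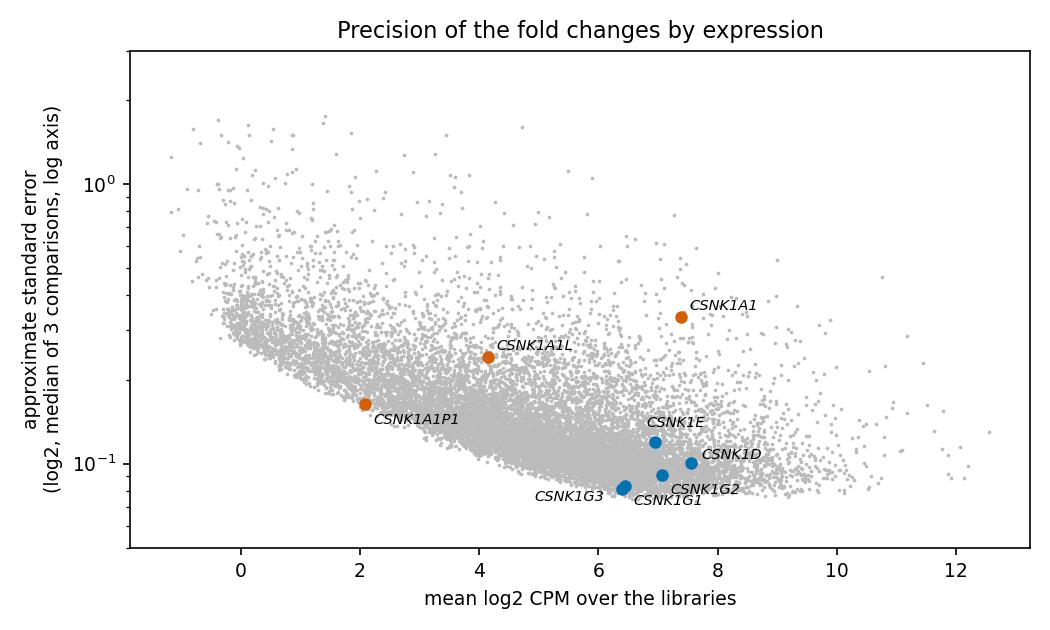
Approximate standard error of the log2 fold change (vertical axis, log scale, median of 3 comparisons) against mean log2 CPM (horizontal axis) for all genes in grey, CSNK1A1 and its copies in orange and the 5 paralogs in blue. CSNK1A1 lies at 0.335, above most genes of its level, while CSNK1G1 and CSNK1G3 lie along the lower edge.

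Since Argonaute and its regulators were the targets of the study, the 3′ UTRs of the members were searched for 7-base matches to the seeds of 8 microRNAs known from colon epithelium. Mature sequences are those of RefSeq (GRCh38.p14), printed for the 5 seeds that had a match, with the seed, bases 2 to 8, in capitals.
hsa-miR-17-5p: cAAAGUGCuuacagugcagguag
hsa-miR-19b-3p: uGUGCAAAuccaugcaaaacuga
hsa-miR-200c-3p: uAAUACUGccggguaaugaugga
hsa-miR-141-3p: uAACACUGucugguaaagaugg
hsa-miR-16-5p: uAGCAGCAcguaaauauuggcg

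The 3′ UTR of CSNK1A1, with 4656 bases, held 5 matches to 4 of the 8 seeds, where UTRs of like length (from 0.8 times its length up to the inverse ratio) had a median of 3 seeds. CSNK1G1 (6414 bases) had 3 seeds against a median of 4, CSNK1D (2114) 3 against 2, CSNK1G3 (2644) 2 against 2, CSNK1E (1279) 1 against 1 and CSNK1A1L (984) 1 against 1. CSNK1G2 (1135 bases) had none, against a median of 1. Family members thus carried about as many of these seeds as other UTRs of their length. Repeated matches to a seed were found in CSNK1A1, for miR-17-5p, and in CSNK1G3, for miR-200c-3p. They are shown in GRCh38 with the 7 matching bases in capitals, on the minus strand for CSNK1A1 at chr5:149494866-149494890 and chr5:149493310-149493334, and on the plus strand for CSNK1G3 at chr5:123614894-123614918 and chr5:123616271-123616295.
CSNK1A1, upstream match: cacttagactatGCACTTTttctga
CSNK1A1, downstream match: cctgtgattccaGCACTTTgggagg
CSNK1G3, upstream match: ctgcattgatttCAGTATTactgat
CSNK1G3, downstream match: cttctttctttaCAGTATTtgacca

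The miR-17-5p match occurs in 53.7% of the 1159 UTRs of like length to that of CSNK1A1 and in 25.4% of all 11878 UTRs searched. The downstream match resembles the Alu repeat, in which these letters are common, and no repeat annotation was used here. The miR-200c-3p match occurs in 30.8% of the 1830 UTRs of like length to that of CSNK1G3 and in 19.7% of all. A match is a run of letters and not a measured site. In the AGO2 knockout, the authors' deposited table gave 0.08 for CSNK1A1 and 0.12 for CSNK1G3, neither past the test, and the single member called there was CSNK1G2, which had no match.

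The genes nearest to CSNK1A1 in their 3 log2 fold changes, by Euclidean distance and where the mean log2 CPM was at least 1, were the retrotransposon-derived PEG10 (distance 0.25), the sugar transporter gene SLC2A12 (0.25), the Dishevelled-binding Wnt inhibitor CXXC4 (0.28), the phosphodiesterase PDE3B (0.38) and the serotonin receptor HTR7 (0.40). Their log2 fold changes in the double knockout ran from -2.23 for PDE3B to -2.37 for SLC2A12 in the authors' deposited table, and from -0.31 to 0.34 in the single knockouts. CSNK1A1L was the 14th nearest, at a distance of 0.56, while CSNK1A1P1 ranked 10197 at 2.97. These distances cover 3 comparisons that share the parental libraries.

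Genes that work with casein kinase 1 were read from lists chosen by name, and their counts stand beside the shares of all genes called, 6.1% in the AGO2 knockout, 13.7% with ANKRD52 lost and 43% in the double knockout. Every call named in these lists for a single knockout was lost against the F distribution. That reading left 0 genes called in the whole AGO2 comparison and 3 in the ANKRD52 comparison, so such losses do not set these genes apart. Among 15 Wnt partners, 3 rose and 4 fell in the double knockout, a share near that of all genes, 2 rose and 2 fell in the ANKRD52 knockout, and none passed the test in the AGO2 knockout. Against the F distribution the double knockout calls of DVL2, which fell, and DVL3, which rose, were lost (adjusted p = 0.104 and 0.0981). In the double against the ANKRD52 knockout, 2 of the 15 were higher and 4 lower, where 18.1% and 16.3% of all genes were. AXIN2, a scaffold of the destruction complex and a classical target of beta-catenin, had an implied level of 58 CPM in the AGO2 knockout, 150 CPM in the ANKRD52 knockout and 602 CPM in the double knockout, against 51.8 CPM in parental cells. It rose 11.6-fold in the double knockout by the authors' deposited table (log2 fold change 3.54, adjusted p = 2.58e-21), and by 1.53 on the log2 scale in the ANKRD52 knockout (adjusted p = 0.000205). The double knockout exceeded the ANKRD52 knockout by 2.01 for AXIN2 (approximate adjusted p = 9.32e-08). The Wnt receptor LRP6, a substrate of the gamma isoforms, rose by 0.56 (adjusted p = 1.51e-08), and its relative LRP5 fell by 0.68 (adjusted p = 4.70e-07), in the authors' deposited table for the double knockout. DVL1, a relay between receptor and destruction complex, had -0.56 in the ANKRD52 knockout (adjusted p = 8.78e-08) and -0.38 in the double knockout (adjusted p = 0.00013) in the authors' deposited tables. Beta-catenin RNA itself (CTNNB1) had -0.09 in the double knockout (adjusted p = 0.431) by the authors' deposited table. The 15 genes had a median of -0.09 in the double knockout, so AXIN2 was far from the rest of its list.

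MDM2, a ubiquitin ligase, rose in the AGO2 knockout (0.57, adjusted p = 7.51e-05) and in the double knockout (1.54, adjusted p = 6.99e-41) in the authors' deposited tables. MDM4, a relative of MDM2 that binds the alpha isoform, had -0.01 in the double knockout (adjusted p = 0.951) by the authors' deposited table. Of 6 Hedgehog partners, 2 rose and 1 fell in the double knockout, where 43% of all genes were called, and the call of the gene that fell, GLI1, was lost against the F distribution (adjusted p = 0.094). The receptor PTCH1 rose 7.94-fold there by the authors' deposited table (adjusted p = 3.24e-15), with 12.9 CPM in the AGO2 knockout, 12.5 CPM in the ANKRD52 knockout and 155 CPM in the double knockout, against 19.5 CPM in parental cells. GLI3, a transcription factor that casein kinase 1 phosphorylates, had 9.05 CPM in the double knockout, against 0.0568 CPM in parental cells, a level of few reads. GLI1 fell by 0.87 in the double knockout (adjusted p = 0.0317), and GLI2 rose by 0.99 in the ANKRD52 knockout (adjusted p = 0.036), in the authors' deposited tables.

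The FAM83 proteins anchor casein kinase 1 isoforms at sites in the cell. Of 8 listed, 6 were measured, and in the double knockout 3 rose and 2 fell, while the ANKRD52 knockout had 2 lower and the AGO2 knockout 1 lower, against 43%, 13.7% and 6.1% of all genes called in the double, ANKRD52 and AGO2 knockouts. FAM83B had 30.2 CPM in the AGO2 knockout, 17.5 CPM in the ANKRD52 knockout and 71.4 CPM in the double knockout, against 31 CPM in parental cells. It fell by 0.82 in the ANKRD52 knockout (adjusted p = 0.02) and rose by 1.20 in the double knockout (adjusted p = 3.65e-05) in the authors' deposited tables, and the double exceeded the single knockout by 2.03 (approximate adjusted p = 5.12e-13). FAM83A rose by 2.25 (adjusted p = 7.60e-08) and FAM83H by 0.58 (adjusted p = 0.00537) in the double knockout of the authors' deposited table. FAM83A is a gene of low level, with a mean log2 CPM of 0.17. It had 2.6 CPM in the double knockout, against 0.545 CPM in parental cells. FAM83F was called lower in all 3 of the authors' deposited tables, with -0.43, -0.54 and -0.38 (adjusted p = 0.0181, 0.000569 and 0.00863), and all 3 of its calls were lost against the F distribution (adjusted p = 0.282, 0.0951 and 0.0549). FAM83G, the other gene that fell in the double knockout (-0.25, adjusted p = 0.048 by the authors' deposited table), also lost its call there (adjusted p = 0.115).

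Of 5 clock substrates of the delta and epsilon isoforms, the authors' deposited tables called 1 against parental cells, PER1, lower in each knockout. It had 65.9 CPM in the AGO2 knockout, 65.6 CPM in the ANKRD52 knockout and 50.6 CPM in the double knockout, against 95.2 CPM in parental cells, and log2 fold changes of -0.53, -0.54 and -0.91 in the authors' deposited tables (adjusted p = 0.0146, 0.00592 and 2.12e-08). Against the F distribution the adjusted p of PER1 was 0.282 in the AGO2 knockout and 0.127 in the ANKRD52 knockout, and these calls were lost. In the double against the ANKRD52 knockout 3 of the 5 were called lower, where 16.3% of all genes were. The differences were -0.38 for PER1 (approximate standard error 0.15, approximate adjusted p = 0.0383), -0.39 for PER2 (0.12, 0.00459) and -0.35 for CRY2 (0.13, 0.0245). These calls take the spread as known. With the sum of both squared errors as variance, called genes fell from 4092 to 1984 over all genes, and calls of these genes under it are not given here. Of 5 components of the CRL4-CRBN ubiquitin ligase, which lenalidomide directs to the alpha isoform, none passed in the single knockouts and 2 fell in the double knockout, where 20.1% of all genes fell. These were DDB1 (-0.28, adjusted p = 0.0083) and RBX1 (-0.31, adjusted p = 0.0195) in the authors' deposited table, and CRBN had -0.16 (adjusted p = 0.302). Against the F distribution the calls of DDB1 and RBX1 were lost (adjusted p = 0.0541 and 0.0759). Of 4 measured kinases of the wider superfamily, VRK1 fell in the ANKRD52 knockout (-0.35, adjusted p = 0.0308) and the double knockout (-0.49, adjusted p = 0.000224), and VRK2 rose in the double knockout (0.39, adjusted p = 0.00534), by the authors' deposited tables. Casein kinase 2, an unrelated enzyme that shares the name, had 3 measured genes of which CSNK2A3 fell in the double knockout (-0.23, adjusted p = 0.00988) in the authors' deposited table, a value that is uncertain since CSNK2A3 is a near copy of CSNK2A1, and a call that was lost against the F distribution (adjusted p = 0.0577).

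**Figure D5:**
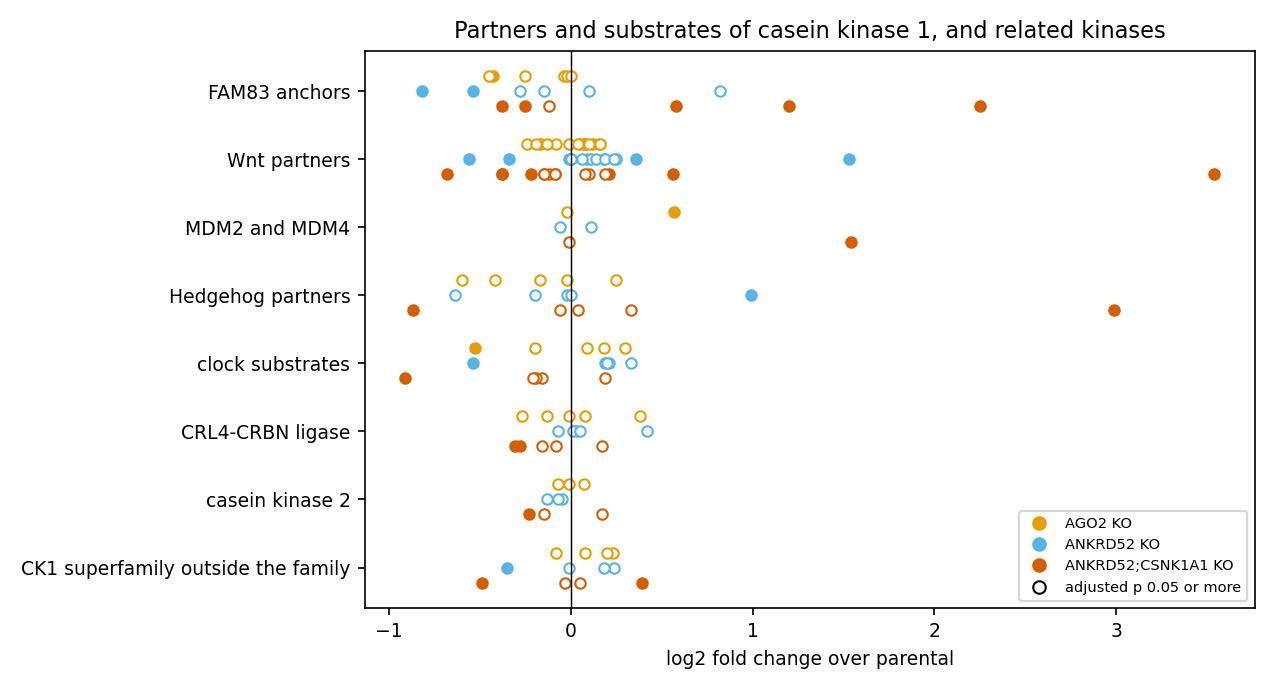
Log2 fold change over parental cells (horizontal axis) of the genes of each list (rows) in the 3 knockouts, 1 point a gene, filled where the authors' adjusted p is under 0.05. AXIN2 at 3.54 and PTCH1 at 2.99 stand apart in the double knockout, while GLI3, at 7.31 there, lies off the axis and is not drawn.

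The cells' identity was read from marker lists. All 7 epithelial markers were measured, with a summed level of 3420 CPM in the AGO2 knockout, 3180 CPM in the ANKRD52 knockout and 8700 CPM in the double knockout, against 3320 CPM in parental cells. The keratins KRT8, KRT18 and KRT19 gave 4410, 1810 and 1600 CPM of the sum in the double knockout, so the sum speaks mostly of these genes. In the double knockout 6 of the 7 were called higher, where 22.9% of all genes were, and EPCAM was not (0.13, adjusted p = 0.596 in the authors' deposited table). In the ANKRD52 knockout 2 were called lower, where 6.04% of all genes were. These were EPCAM (-0.81, adjusted p = 0.000545) and CDH1 (-1.33, adjusted p = 0.0195) in the authors' deposited table. Against the F distribution both calls were lost (adjusted p = 0.0951 and 0.157). Of 10 markers of other cell types 4 were measured, with sums of 19.5, 15.8 and 26.3 CPM in the AGO2, ANKRD52 and double knockouts, against 16.7 CPM in parental cells, and the other 6 were not analysed here. In the double knockout 2 of these 4 were called higher and 1 lower in the authors' deposited table, with 6.77 for LYZ (adjusted p = 1.27e-12), 2.25 for VWF (1.61e-11) and -1.96 for CD68 (3.24e-08), while COL1A1 had 0.24 (0.281). Their implied levels were 8.63, 2.53 and 1.07 CPM for LYZ, VWF and CD68 in the double knockout, against 0.0788, 0.53 and 4.18 CPM in parental cells. The rise of 6 of the 7 epithelial markers and the falls of CSNK1A1, CSNK1A1L and CSNK1A1P1 were in the same group, and the part of one in the other was not tested. In bulk RNA, fewer cells that express a gene and less RNA per cell cannot be told apart.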

How the data were processed

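Poly(A) RNA of 12 HCT116 libraries, harvested 48 hours after seeding, was read with a stranded kit, per the labels' protocols. TopHat2 2.0.12, featureCounts 1.4.6, edgeR 3.8.6 and hg19 are named, without roles, by the submitters' processing notes. What the authors deposited is 1 edgeR table a knockout, with log2 fold changes, the mean log2 CPM, a likelihood ratio score, and p-values raw and adjusted, per the file headers. The p-values were found to be chi-square tails with 1 degree of freedom, and the adjusted ones Benjamini-Hochberg values over 12756 genes. No column holds values per sample. Library depth is therefore unknown, no SD is given, and the count tests that the design allowed for were replaced by its version for tables of fold changes.

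Each approximate standard error is the size of the log2 fold change divided by the root of its likelihood ratio, with normal intervals at 95%. For the double against the ANKRD52 knockout, log2 fold changes were subtracted, the variance was the average of the squared errors of both, and p-values were Benjamini-Hochberg adjusted over 11876 genes whose mean log2 CPM was at least 1. Tested on simulated data of 12756 genes with these errors taken as given, 67% of differences of 0.5 and 95% of differences of 1 were found. Group levels were implied by assuming 4 groups of equal weight, and the level of 3 reads assumes a prior count of 0.125.

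Positions, exons and sequences are those of GENCODE release 29 (GRCh38), not of the build the authors used. Genes were matched by symbol (11839) or by a synonym in RefSeq (585), leaving 332 unmatched. Neighbours, genes of like GC content and UTR shares use matched genes.

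Named were every member, the targeted genes, the 3 tested neighbours on each side of CSNK1A1, the 5 genes nearest to it in pattern, and of each list up to 4 called genes by smallest p. CTNNB1, MDM4, CRBN, PER2, CRY2, COL1A1, BTBD2, DVL2, DVL3, FAM83G, EPCAM, CDH1 and KRT18 were named after their values were seen. A further listed gene is not reported here. The members, lists and microRNAs were chosen with earlier results of these data known. Alternatives were other thresholds, an expression filter, centring, an F distribution, another variance, and, chosen after seeing the data, leaving out CSNK1A1L and CSNK1A1P1. Scripts ran in Python 3.11.15 with numpy 2.4.6, pandas 2.3.3, scipy 1.17.1 and matplotlib 3.10.9.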

Additional observations from a re-analysis of the deposited data

How the results depend on the processing

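The likelihood ratio test takes the spread as known, and 12 libraries in 4 groups leave 8 degrees of freedom. Against an F distribution (1 and 8 degrees of freedom), the members called were 0 in the AGO2 knockout and 0 in the ANKRD52 knockout, with 1 member at an unadjusted F p under 0.05 in each (2 by the deposited p), and 0 and 3 genes called over the whole tables. The 5 members called in the double knockout kept their calls there. At an adjusted p under 0.01, the ANKRD52 knockout had 0 members called. Without CSNK1A1L and CSNK1A1P1, an alternative chosen after seeing the data, 3 members were called in the double knockout and 1 in the double against the ANKRD52 knockout. The other 14 counts of called members stayed within 1.5 times, and of the tested values of single members 117 kept direction and side of the threshold and 3, all of CSNK1G2, lost the call. Under both centrings, where no test was made, 48 values moved by less than their approximate standard error and no called value changed sign. Over all genes, the double against the ANKRD52 knockout had 4092 called genes, and 1984 with the sum of both squared errors as variance.

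No paired analysis was possible because the columns hold no values per sample, and leaving out each replicate was not run for the same reason. Depth is unknown, and no floor was set per library.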
